A study of Homo sapiens with 9 samples.

Results

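The genes described here encode enzymes with which the liver breaks down amino acids and turns the released nitrogen into urea. The 51 genes were listed by the function of the enzyme they encode, and 47 of the 51 were found in both deposited count tables. The list was made with earlier results of these data known, so its shares and medians do not come from a blind choice. The RNA-seq libraries were made from HepG2 cells, an established line from a human liver tumour, grown in low-glucose medium with fetal bovine serum. In all, 3 groups were compared, namely sh-Con (a line with a control hairpin), sh1-TUG1 and sh2-TUG1 (lines in which 2 different short hairpin RNAs target the long non-coding RNA TUG1). The hairpins sit in a doxycycline-inducible lentiviral vector with puromycin selection, and every group, the control included, carries that vector. Doxycycline switches the hairpins on, and the study's RNA-seq methods do not give the treatment of the sequenced cells. Each group is 1 stable line, so the hairpin and the line that carries it cannot be told apart. Each group had 3 libraries that the study describes as technical replicates, and the p-values therefore measure the spread between libraries and not between separately grown cultures.

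Amino acids are first stripped of their nitrogen by transaminases and deaminases, and their carbon skeletons then enter the citric acid cycle, glucose or ketone body synthesis. Glutamate collects much of the nitrogen, glutamate dehydrogenase frees it as ammonia, and the urea cycle converts ammonia into urea within hepatocytes. Many of the enzymes, among them those of tyrosine, tryptophan and histidine breakdown and of methyl-group metabolism, are found mainly in hepatocytes, and inherited loss of single enzymes causes disorders such as tyrosinemia or argininosuccinic aciduria.

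The libraries held between 33051617 and 39393293 assigned reads, and both tables hold the same 3 control libraries, so that the 2 comparisons with sh-Con are not independent. No row for TUG1 was analysed here, so the labels could not be checked against the targeted gene. All 9 hepatocyte-lineage markers examined were listed, with a summed level of 39999 to 41671 CPM (counts scaled to a common library total) in sh-Con, 44509 to 45962 CPM in sh1-TUG1 and 48692 to 51004 CPM in sh2-TUG1, and single markers moved both ways. Albumin (ALB) rose in sh2-TUG1 (log2 fold change 0.91, adjusted p = 1.51e-06) while transthyretin (TTR) fell (log2 fold change -0.82, adjusted p = 3.63e-04), and HNF4A was at 252, 249.9 and 219.8 CPM in the 3 groups. Of markers of other cell types, 2 of 5 fibroblast genes summed to between 56.2 and 60.6 CPM in sh-Con, 75.4 to 80.7 in sh1-TUG1 and 87.9 to 93.4 in sh2-TUG1. For endothelial genes (2 of 4 listed) the ranges were 8.75 to 9.46, 11.3 to 12.2 and 12.2 to 13.6 CPM. For immune genes (2 of 5 listed) they were 926 to 1138, 1155 to 1243 and 713 to 778 CPM, nearly all of it lysozyme (LYZ). The defining markers COL1A1, COL1A2, COL3A1, CDH5, KDR, PTPRC, CD3E and CD14 were in neither table. The part that these markers have in the results below was not tested, and in such bulk RNA fewer cells of a type cannot be told apart from less RNA per cell.

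Not all steps of these pathways could be examined. OTC (ornithine transcarbamylase, the urea cycle step that makes citrulline), UROC1 (urocanate hydratase), TDO2 (the first enzyme of tryptophan breakdown) and SDS (serine dehydratase) were in neither table and were not analysed here. The lowest row total over 6 libraries was 152 reads in the sh1-TUG1 table and 140 in the sh2-TUG1 table.

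To compare levels between genes, CPM was divided by the exon length of each gene in kilobases. In sh-Con the 47 genes ranged from 0.138 to 104 CPM per kb with a median of 9.42 CPM per kb, and 22 lay above 10 CPM per kb. AHCY, which hydrolyses S-adenosylhomocysteine, stood highest with 104 ± 2.09 CPM per kb (SD, n = 3), beside HPD, the dioxygenase of tyrosine breakdown, at 103 ± 19.3. These neighbours in the order did not differ beyond their spread. The cytosolic aspartate aminotransferase GOT1 followed at 88.2 ± 2.21 and glutamate dehydrogenase GLUD1 at 82.7 ± 4.86 CPM per kb, and ALDH4A1 (50.9 ± 0.457) and ARG2 (50.5 ± 5.22) were also alike within their spread. At the other end, ARG1 (1.21 ± 0.252), BCAT2 (0.794 ± 0.190), AGXT (0.775 ± 0.143), BHMT (0.692 ± 0.0820), GLS2 (0.467 ± 0.109) and PRODH (0.138 ± 0.00610) were the lowest. CPS1, the entry enzyme of the urea cycle, was at 2.27 ± 0.175 CPM per kb, against 26.8 ± 2.43 for ASS1 and 43.3 ± 1.41 for ASL, the enzymes that make and cleave argininosuccinate.

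**Figure D1:**
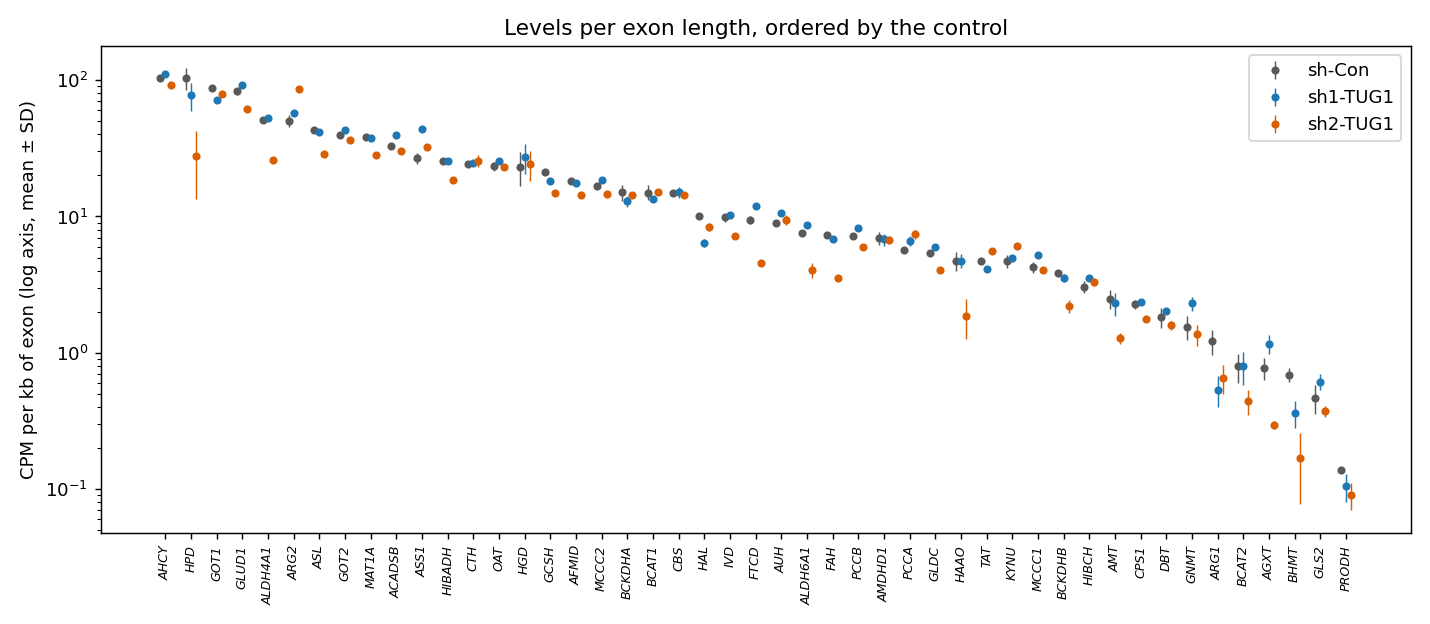
Level of the 47 listed genes as CPM per kb of exon on a log axis, mean ± SD of 3 libraries in sh-Con (grey), sh1-TUG1 (blue) and sh2-TUG1 (orange), ordered by the control. AHCY and HPD lead in sh-Con at 104 and 103 CPM per kb, while HPD, BHMT and AGXT show the widest gaps between sh-Con and sh2-TUG1.

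The question of the comparisons was which of these genes changed in each knockdown line. A gene was called changed at a fold change above 1.5 with an adjusted p below 0.05, the criteria of the study for differentially expressed genes, by the quasi-likelihood test of edgeR, with Benjamini-Hochberg adjustment across all genes. In sh1-TUG1, 1 of 47 genes was higher (ASS1) and 3 were lower (ARG1, HAL and BHMT), where 2.44% of all 13017 genes tested were called higher and 2.52% lower. In sh2-TUG1, 1 gene was higher (ARG2) and 13 were lower, that is 27.7% of the 47, where 4.35% of all 12953 genes were called higher and 8.97% lower. The 13 were ASL, ARG1, ALDH4A1, FTCD, HPD, FAH, HAAO, BCAT2, BCKDHB, ALDH6A1, BHMT, AMT and AGXT. ARG1 and BHMT were lower in both lines.

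The median log2 fold change over the 47 genes was 0.05 in sh1-TUG1, with 0.0027 over all genes, and -0.27 in sh2-TUG1, with -0.0048 over all genes. By the adjusted p alone, sh1-TUG1 had 9 higher and 6 lower genes (background 12.5% and 12.3% of all genes), and sh2-TUG1 had 5 higher and 27 lower ones (background 21.6% and 21.9%). The 2 lines were also compared directly. In sh2-TUG1 against sh1-TUG1, 1 gene was higher (ARG2) and 14 were lower, or 29.8% of the 47, where 2.56% and 8.04% of all 12854 genes were called in those directions, and the median log2 fold change was -0.38 against -0.00067 over all genes. By the adjusted p alone, 5 were higher and 30 lower (background 21.0% and 21.7%). Of the 13 genes lower in sh2-TUG1 against sh-Con, 11 were also called lower against sh1-TUG1, the exceptions being ASL and ARG1.

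**Figure D2:**
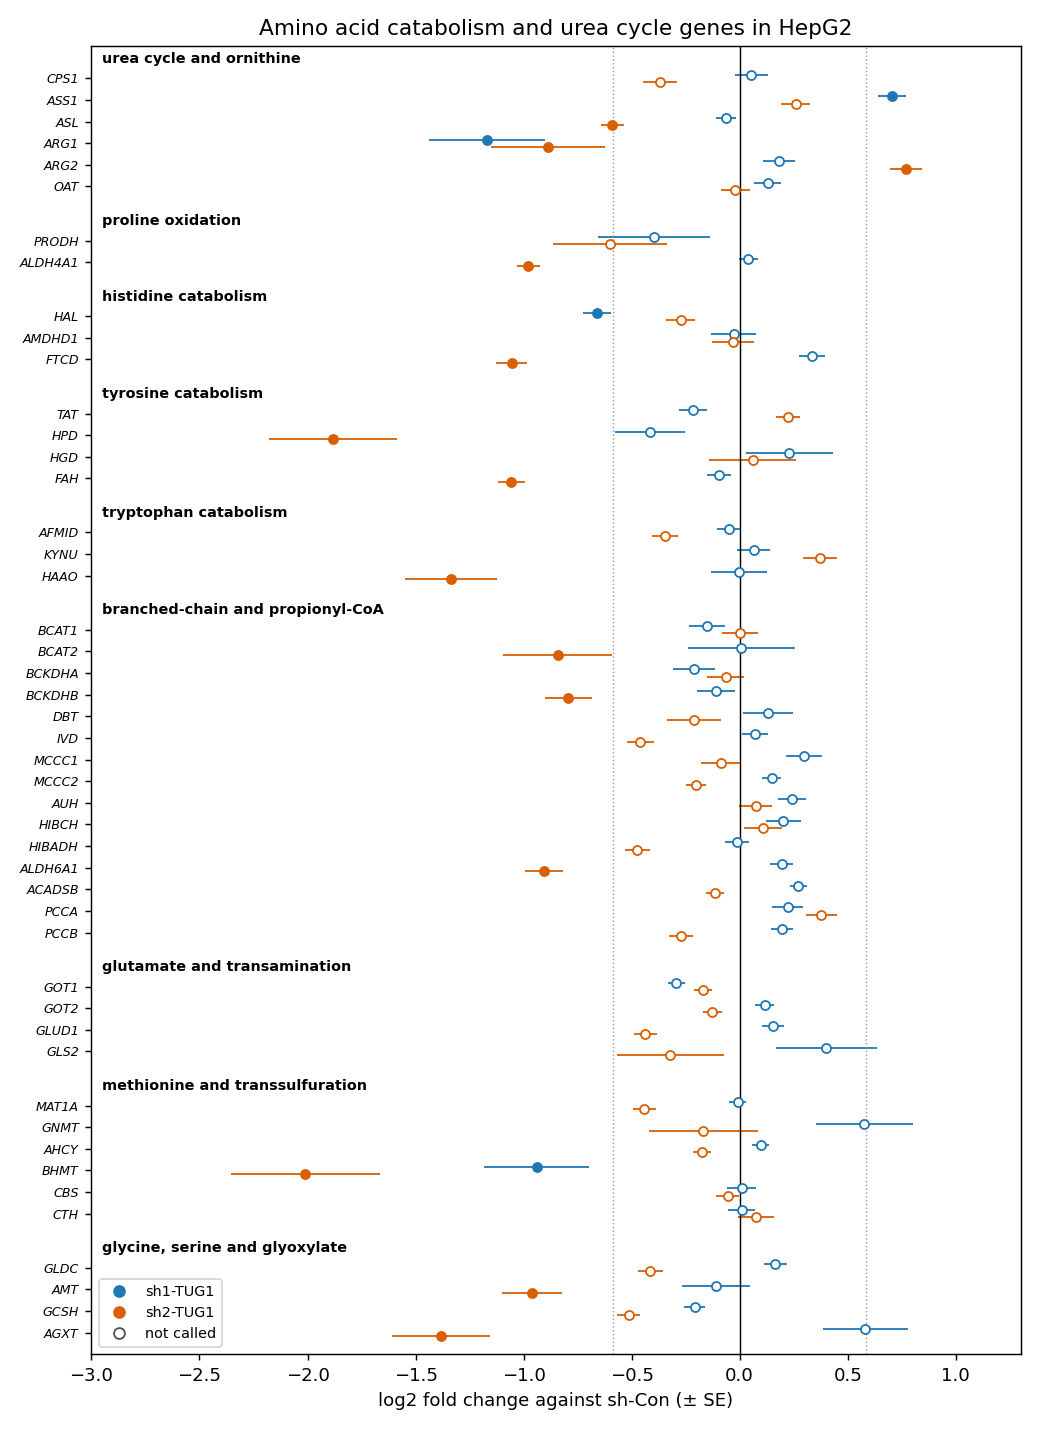
Log2 fold change against sh-Con with its standard error for each of the 47 genes, by pathway, in sh1-TUG1 (blue) and sh2-TUG1 (orange), with filled points for called genes and dotted lines at a fold change of 1.5. In sh2-TUG1 13 filled points lie left of the dotted line and 1 lies right of it, and in sh1-TUG1 3 lie left and 1 right.

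**Figure D3:**
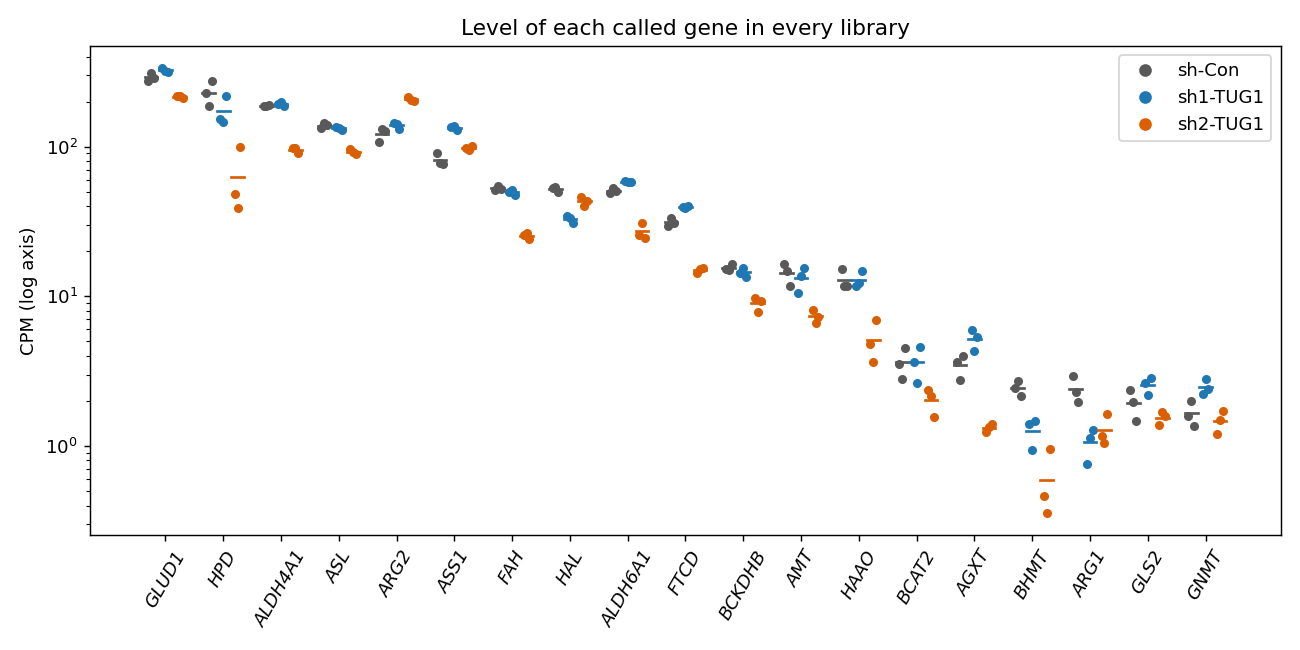
CPM on a log axis in every library for the 19 genes called in any of the 3 comparisons, with a short line at each group mean. HPD ran from 39.1 to 99.5 CPM within sh2-TUG1, while ALDH4A1, FAH and FTCD formed tight groups.

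In the set of urea cycle and ornithine genes, which includes ARG2 and OAT, 3 of 6 listed genes were called in sh2-TUG1. Of these, 1 was higher (ARG2) and 2 were lower (ASL and ARG1), where 4.35% and 8.97% of all genes were called. In sh1-TUG1, 2 were called, 1 higher and 1 lower (2.44% and 2.52% of all genes). The 2 arginases moved in opposite directions in sh2-TUG1. ARG1 (chr6:131573144-131584332, GRCh38), the cytosolic arginase of hepatocytes that splits arginine into urea and ornithine, was at 2.93, 2.28 and 1.96 CPM in sh-Con, 0.761, 1.13 and 1.27 in sh1-TUG1 and 1.17, 1.05 and 1.63 CPM in sh2-TUG1. Every knockdown library lay below every control library. ARG1 fell in sh1-TUG1 (log2 fold change -1.17 ± 0.27 SE, adjusted p = 0.0113) and also in sh2-TUG1 (-0.89 ± 0.26, adjusted p = 0.0215), from 73 to 96 reads in the control libraries to 26 to 63 reads in the others. The fall in sh2-TUG1 missed the threshold without sh-Con replicate 1 (adjusted p = 0.0705), sh2-TUG1 replicate 1 (0.0691) or sh2-TUG1 replicate 2 (0.0729).

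ARG2 (chr14:67619798-67651720), the mitochondrial arginase, was at 108, 131 and 127 CPM in sh-Con, 143, 141 and 131 in sh1-TUG1 and 216, 206 and 203 CPM in sh2-TUG1. The sh2-TUG1 libraries stood apart above both other groups. ARG2 rose in sh2-TUG1 against sh-Con (log2 fold change 0.77 ± 0.07, adjusted p = 4.65e-05) and against sh1-TUG1 (0.59 ± 0.07, adjusted p = 3.81e-05), where the fold lay just above the limit and went below it without sh1-TUG1 replicate 3 (log2 fold change 0.55) or sh2-TUG1 replicate 1 (0.56). In sh1-TUG1 its difference from sh-Con did not pass (0.18 ± 0.07, adjusted p = 0.105). Per kb of exon, ARG2 exceeded ARG1 43.2 ± 12.0 times in sh-Con, 113 ± 35.8 times in sh1-TUG1 and 137 ± 31.5 times in sh2-TUG1. Exons of ARG2 share 904 bases with VTI1B on the other strand, whose log2 fold change in sh2-TUG1 was -0.03.

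ASS1 (chr9:130444929-130501274), which condenses citrulline with aspartate, was at 90.4, 77.9 and 77.1 CPM in sh-Con, 134, 136 and 129 in sh1-TUG1 and 97.4, 95.6 and 101 CPM in sh2-TUG1. The sh1-TUG1 libraries were above all others. ASS1 rose in sh1-TUG1 (log2 fold change 0.71 ± 0.06, adjusted p = 6.97e-05) and stayed under the fold limit in sh2-TUG1 (0.26 ± 0.07, adjusted p = 0.0119). The annotation holds 11 ASS1 pseudogenes, none of them in the tables, and reads shared with them could have been assigned either way.

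ASL (chr7:66075798-66093558), which releases arginine and fumarate, was at 134, 143 and 138 CPM in sh-Con, 135, 134 and 129 in sh1-TUG1 and 95.8, 91.6 and 89.0 CPM in sh2-TUG1. It fell in sh2-TUG1 by a fold barely over the limit (log2 fold change -0.59 ± 0.05, adjusted p = 2.66e-05), and leaving out sh-Con replicate 2 (-0.56), sh2-TUG1 replicate 2 (-0.58) or sh2-TUG1 replicate 3 (-0.56) brought it under. Its exons share 563 bases with AC068533.4 on the same strand, a gene in neither table. CPS1, which makes carbamoyl phosphate from ammonia, was at 22.6, 24.6 and 26.3 CPM in sh-Con, 25.7, 26.6 and 24.2 in sh1-TUG1 and 19.3, 18.3 and 19.5 CPM in sh2-TUG1, with a log2 fold change of -0.37 ± 0.08 in sh2-TUG1 (adjusted p = 0.0042) that was under the fold limit. OAT, the ornithine aminotransferase, was at 72.2, 81.8 and 83.9 CPM in sh-Con, 87.6, 85.7 and 87.3 in sh1-TUG1 and 78.3, 81.9 and 75.1 CPM in sh2-TUG1, and passed in neither line (adjusted p = 0.165 and 0.843).

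**Figure D4:**
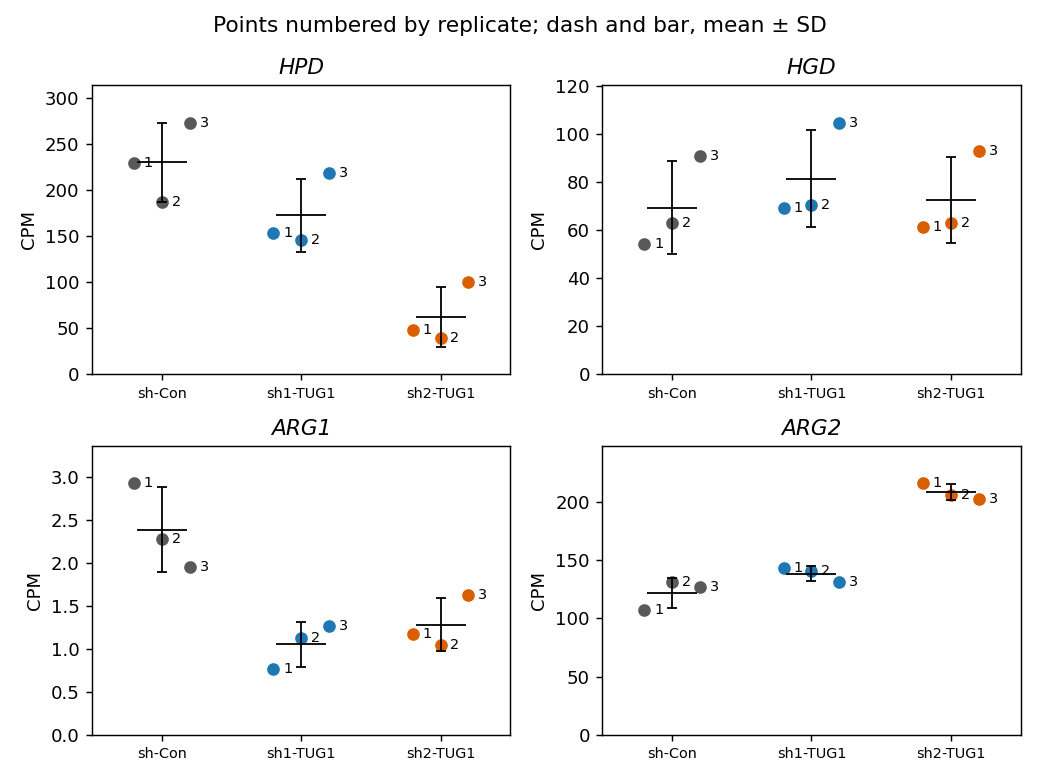
CPM of HPD, HGD, ARG1 and ARG2 in every library, numbered by replicate, with the mean ± SD of each group. ARG1 is below the controls in all 6 knockdown libraries, ARG2 is above them in the 3 sh2-TUG1 libraries, and replicate 3 is the highest for HPD and HGD in every group.

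In proline oxidation, ALDH4A1 (chr1:18871430-18902781), the mitochondrial dehydrogenase that makes glutamate from the proline intermediate, was at 186, 188 and 189 CPM in sh-Con, 192, 200 and 188 in sh1-TUG1 and 98.6, 97.8 and 90.2 CPM in sh2-TUG1. Its level in sh2-TUG1 was 1.97-fold below the control, with no overlap between libraries. Its exons share 1517 bases with AL080251.1 on the same strand, a gene in neither table. The fall reached a log2 fold change of -0.98 ± 0.05 against sh-Con (adjusted p = 1.26e-06) and -1.02 ± 0.05 against sh1-TUG1 (adjusted p = 7.65e-08), while sh1-TUG1 was at 0.04 ± 0.04 (adjusted p = 0.521). PRODH, the enzyme before it, was near the detection limit with 19 to 47 reads a library and had a log2 fold change of -0.60 ± 0.26 in sh2-TUG1 (adjusted p = 0.0911).

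In histidine breakdown the first and the last listed enzyme changed in different lines. HAL (chr12:95972662-95996365), the histidase that removes ammonia from histidine, was at 53.2, 53.5 and 49.4 CPM in sh-Con, 34.6, 33.5 and 30.7 in sh1-TUG1 and 46.1, 40.0 and 43.3 CPM in sh2-TUG1. It fell in sh1-TUG1 (log2 fold change -0.66 ± 0.06, adjusted p = 9.18e-05) and was lower but under the fold limit in sh2-TUG1 (-0.27 ± 0.07, adjusted p = 0.00967). The direct comparison gave 0.39 ± 0.07 for sh2-TUG1 against sh1-TUG1 (adjusted p = 7.53e-04), also under the limit.

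FTCD (chr21:46136262-46155567), which hands the formimino group of histidine to folate, was at 29.5, 33.3 and 30.7 CPM in sh-Con, 39.4, 38.8 and 39.8 in sh1-TUG1 and 14.4, 15.2 and 15.5 CPM in sh2-TUG1. The 3 groups did not overlap, and the knockdown lines lay on opposite sides of the control. FTCD fell in sh2-TUG1 (log2 fold change -1.06 ± 0.07, adjusted p = 6.09e-06), was higher under the fold limit in sh1-TUG1 (0.33 ± 0.06, adjusted p = 0.0039), and differed between the lines by -1.39 ± 0.06 (adjusted p = 7.65e-08). AMDHD1, the step between urocanate hydratase and FTCD, was at a log2 fold change of -0.03 in each line (± 0.10 in both, adjusted p = 0.88 and 0.827).

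In tyrosine breakdown, 2 of 4 enzymes fell in sh2-TUG1 (8.97% of all genes). None was called in sh1-TUG1, where 2.44% of all genes were called higher and 2.52% lower. HPD (chr12:121839527-121863596), the dioxygenase that makes homogentisate and the target of the drug nitisinone, was at 229, 187 and 273 CPM in sh-Con, 153, 145 and 218 in sh1-TUG1 and 48.1, 39.1 and 99.5 CPM in sh2-TUG1. The sh2-TUG1 libraries were below all others, and the sh-Con and sh1-TUG1 ranges overlapped. HPD fell 3.69-fold in sh2-TUG1 against sh-Con (log2 fold change -1.88 ± 0.30, adjusted p = 8.53e-04) and 2.76-fold against sh1-TUG1 (-1.46 ± 0.29, adjusted p = 0.00169). In sh1-TUG1 the log2 fold change was -0.42 ± 0.16 (adjusted p = 0.0902), and it was called without sh1-TUG1 replicate 3 (-0.62, adjusted p = 0.0142).

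Replicate 3 held the highest HPD level in each group, above the mean of the other 2 libraries by 0.40, 0.55 and 1.20 on the log2 CPM scale in sh-Con, sh1-TUG1 and sh2-TUG1. HGD, the homogentisate dioxygenase that acts next, shared this, at 54.0, 62.8 and 91.1 CPM in sh-Con, 69.1, 70.4 and 105 in sh1-TUG1 and 61.3, 62.8 and 93.1 CPM in sh2-TUG1, and did not pass in either line (log2 fold change 0.23 ± 0.20 and 0.06 ± 0.20, adjusted p = 0.444 and 0.834). Without replicate 3 of every group, the log2 fold change of HPD was -2.25 in sh2-TUG1 and -0.48 in sh1-TUG1 (adjusted p = 1.2e-05 and 0.0183), the latter under the fold limit.

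FAH (chr15:80152490-80186946), the last enzyme of the route, was at 51.3, 55.0 and 52.3 CPM in sh-Con, 49.5, 51.2 and 47.6 in sh1-TUG1 and 25.7, 26.5 and 24.2 CPM in sh2-TUG1. It fell 2.08-fold in sh2-TUG1 (log2 fold change -1.06 ± 0.06, adjusted p = 2.25e-06), with a sh1-TUG1 value of -0.10 ± 0.06 (adjusted p = 0.235) and a difference between the lines of -0.96 ± 0.06 (adjusted p = 3.6e-07). TAT, the tyrosine aminotransferase at the head of the route, moved in opposite directions in the lines and under the fold limit, at -0.22 ± 0.06 for sh1-TUG1 (adjusted p = 0.0355) and 0.22 ± 0.06 for sh2-TUG1 (adjusted p = 0.0114) on the log2 scale.

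In tryptophan breakdown, HAAO (chr2:42767089-42792593), which opens the ring of hydroxyanthranilate on the way to NAD, was at 15.3, 11.8 and 11.8 CPM in sh-Con, 11.8, 12.2 and 14.6 in sh1-TUG1 and 4.77, 3.65 and 6.92 CPM in sh2-TUG1. It fell 2.52-fold in sh2-TUG1 (log2 fold change -1.33 ± 0.21, adjusted p = 9.26e-04), and by nearly the same against sh1-TUG1 (-1.33 ± 0.20, adjusted p = 2.72e-04), which itself was at 0.00 ± 0.13 against sh-Con (adjusted p = 0.984). Kynureninase (KYNU), the enzyme that precedes it, was higher in sh2-TUG1 under the fold limit (0.37 ± 0.08, adjusted p = 0.00473), and kynurenine formamidase (AFMID) was lower under the limit (-0.35 ± 0.06, adjusted p = 0.00133).

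Of 15 genes of branched-chain amino acid and propionyl-CoA metabolism, 3 fell in sh2-TUG1 (8.97% of all genes). None was called in sh1-TUG1 (2.44% of all genes higher and 2.52% lower). ALDH6A1 (chr14:74056850-74084493), the mitochondrial semialdehyde dehydrogenase of valine and thymine breakdown, was at 48.6, 53.2 and 50.4 CPM in sh-Con, 58.9, 57.9 and 57.6 in sh1-TUG1 and 25.9, 30.9 and 24.6 CPM in sh2-TUG1. It fell in sh2-TUG1 (log2 fold change -0.91 ± 0.09, adjusted p = 4.46e-05) and was higher under the fold limit in sh1-TUG1 (0.19 ± 0.05, adjusted p = 0.0272), and the lines differed by -1.10 ± 0.08 (adjusted p = 9.09e-07). Its exons share 670 bases with BBOF1 on the other strand, which had a log2 fold change of 0.13 in sh2-TUG1.

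BCKDHB (chr6:80106647-80346270), the E1 beta subunit of the complex that commits branched-chain keto acids to oxidation, was at 15.3, 14.9 and 16.5 CPM in sh-Con, 14.3, 15.5 and 13.5 in sh1-TUG1 and 9.81, 7.84 and 9.30 CPM in sh2-TUG1. The fall in sh2-TUG1 (log2 fold change -0.79 ± 0.11, adjusted p = 3.85e-04) was not matched by its partner subunits, as BCKDHA (E1 alpha) was at -0.07 ± 0.09 (adjusted p = 0.58) and DBT (E2) at -0.21 ± 0.13 (adjusted p = 0.202). Whether the subunits differ from each other was not tested. Exons of BCKDHA share 1660 bases with AC011462.1 on the same strand, a gene in neither table, so its value is less certain.

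BCAT2 (chr19:48795062-48811029), the mitochondrial branched-chain transaminase, was low throughout, at 3.51, 2.81 and 4.53 CPM in sh-Con, 3.66, 2.65 and 4.62 in sh1-TUG1 and 2.37, 2.16 and 1.55 CPM in sh2-TUG1. It fell in sh2-TUG1 against both groups (log2 fold change -0.84 ± 0.25 against sh-Con, adjusted p = 0.0226, and -0.85 ± 0.26 against sh1-TUG1, adjusted p = 0.0208), but rested on replicate 3. Without sh-Con replicate 3 the adjusted p against sh-Con was 0.0945, without sh2-TUG1 replicate 3 it was 0.0715, and against sh1-TUG1 it was 0.100 without sh1-TUG1 replicate 3 and 0.0774 without sh2-TUG1 replicate 3. BCAT1, the cytosolic form that is usual in tumours and not in adult liver, was at 177 CPM in both sh-Con and sh2-TUG1 and had the smallest change of this set (0.00 ± 0.08, adjusted p = 0.989). Per kb of exon BCAT1 exceeded BCAT2 19.7 ± 5.99 times in sh-Con, 17.9 ± 5.74 times in sh1-TUG1 and 34.7 ± 6.64 times in sh2-TUG1.

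By the adjusted p alone, 7 of the 15 branched-chain and propionyl-CoA genes were higher and none lower in sh1-TUG1 (12.5% and 12.3% of all genes), and 1 was higher and 7 lower in sh2-TUG1 (21.6% and 21.9% of all genes). The 2 subunits of propionyl-CoA carboxylase parted in sh2-TUG1, with PCCA higher (0.38 ± 0.07, adjusted p = 0.00228) and PCCB lower (-0.27 ± 0.06, adjusted p = 0.00364), both under the fold limit. Per kb of exon the ratio of PCCB to PCCA was 1.27 ± 0.0436 in sh-Con, 1.25 ± 0.114 in sh1-TUG1 and 0.812 ± 0.0601 in sh2-TUG1. On the other strand, PCCB shares 1664 exonic bases with STAG1 (log2 fold change 0.61 in sh2-TUG1) and PCCA shares 274 with GGACT (-0.98). In sh1-TUG1, PCCB was at 0.19 (adjusted p = 0.0201) and STAG1 at 0.20 (adjusted p = 0.0314), while PCCA was at 0.22 (adjusted p = 0.049) and GGACT at -0.53 (adjusted p = 0.0613). The partners' part in these values was not tested.

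Among the genes of glutamate handling, none was called against sh-Con in either line. When the lines were compared directly, 2 of 4 were lower (8.04% of all genes). GLUD1 (chr10:87050486-87094866), the glutamate dehydrogenase, was at 275, 309 and 288 CPM in sh-Con, 334, 322 and 315 in sh1-TUG1 and 219, 217 and 210.4 CPM in sh2-TUG1. The 3 groups did not overlap. The log2 fold change between the lines was -0.59 ± 0.05 (adjusted p = 2.5e-06), just past the fold limit and under it without sh1-TUG1 replicate 1 (-0.56) or sh2-TUG1 replicate 3 (-0.57), and against sh-Con it was 0.15 ± 0.05 for sh1-TUG1 (adjusted p = 0.0535) and -0.44 ± 0.05 for sh2-TUG1 (adjusted p = 1.92e-04). Exons of GLUD1 share 464 bases with SHLD2 on the other strand (log2 fold change 0.27 between the lines). GLUD2, a near-identical copy of GLUD1, held 22 to 60 reads a library.

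GLS2 (chr12:56470944-56488414), the liver-type glutaminase, was at 2.38, 1.95 and 1.47 CPM in sh-Con, 2.64, 2.18 and 2.84 in sh1-TUG1 and 1.38, 1.68 and 1.58 CPM in sh2-TUG1. Between the lines it was lower in sh2-TUG1 (log2 fold change -0.72 ± 0.23, adjusted p = 0.0229), a call that was lost without sh1-TUG1 replicate 1 (adjusted p = 0.0571), sh1-TUG1 replicate 3 (0.0821), sh2-TUG1 replicate 1 (0.0719) or sh2-TUG1 replicate 3 (0.0502). Its exons share 3193 bases with SPRYD4 on the other strand (log2 fold change -0.11 between the lines). Of the aspartate aminotransferases, GOT2 had the smallest change of the set in sh2-TUG1 (-0.13 ± 0.04, adjusted p = 0.04). GOT1 was at -0.29 ± 0.04 in sh1-TUG1 (adjusted p = 8.14e-04) and at -0.17 ± 0.04 in sh2-TUG1 (adjusted p = 0.0102), all under the fold limit.

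In methionine metabolism, BHMT (chr5:79111779-79132290), which remethylates homocysteine with betaine in liver and kidney, showed the largest fall of all 47 genes in sh2-TUG1. It was at 2.44, 2.72 and 2.14 CPM in sh-Con, 1.41, 0.938 and 1.46 in sh1-TUG1 and 0.461, 0.359 and 0.959 CPM in sh2-TUG1, that is 80 to 92, 34 to 55 and 12 to 37 reads. All 6 knockdown libraries were below the 3 controls. BHMT fell 4.03-fold in sh2-TUG1 (log2 fold change -2.01 ± 0.35, adjusted p = 0.00137) and 1.92-fold in sh1-TUG1 (-0.94 ± 0.24, adjusted p = 0.0192), the latter lost without sh-Con replicate 2 (adjusted p = 0.0609) or sh1-TUG1 replicate 2 (0.0655). The difference between the lines (-1.07 ± 0.34, adjusted p = 0.0251) was lost without sh1-TUG1 replicate 1 (adjusted p = 0.0698), sh1-TUG1 replicate 3 (0.0822), sh2-TUG1 replicate 1 (0.0837) or sh2-TUG1 replicate 2 (0.0886).

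GNMT (chr6:42960758-42963880), which uses up S-adenosylmethionine to methylate glycine, was at 1.59, 2.01 and 1.37 CPM in sh-Con, 2.23, 2.79 and 2.39 in sh1-TUG1 and 1.2, 1.5 and 1.71 CPM in sh2-TUG1. It was called only between the lines (log2 fold change -0.74 ± 0.23, adjusted p = 0.0195), and not without sh1-TUG1 replicate 2 (adjusted p = 0.0692) or sh2-TUG1 replicate 1 (0.0707). The transsulfuration enzyme CBS had the smallest change of the set in sh2-TUG1 (-0.06 ± 0.06, adjusted p = 0.444). The tables also hold CBSL, an annotated copy of CBS with 1286 to 2158 reads a library, and how the authors' counting divided reads between the 2 names is not given in the sources used here.

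In glycine, serine and glyoxylate metabolism, 2 of 4 listed genes fell in sh2-TUG1 (8.97% of all genes), and by the adjusted p alone all 4 were lower there (21.9% of all genes). AGXT (chr2:240868479-240880502), the peroxisomal aminotransferase that detoxifies glyoxylate, was at 3.63, 2.75 and 3.99 CPM in sh-Con, 5.95, 4.30 and 5.31 in sh1-TUG1 and 1.23, 1.35 and 1.40 CPM in sh2-TUG1. The groups did not overlap, with sh1-TUG1 highest. AGXT fell 2.61-fold in sh2-TUG1 against sh-Con (log2 fold change -1.38 ± 0.23, adjusted p = 0.00104), and the gap between the lines was 3.90-fold (-1.96 ± 0.21, adjusted p = 1.98e-05), the widest of the 47 genes. In sh1-TUG1 it was at 0.58 ± 0.20 (adjusted p = 0.0563), and it was called higher there with library size alone in place of TMM factors (0.61, adjusted p = 0.0476).

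The glycine cleavage system breaks glycine into carbon dioxide, ammonia and a one-carbon unit on folate. Its aminomethyltransferase AMT (chr3:49416775-49422753) was at 16.3, 14.8 and 11.7 CPM in sh-Con, 10.5, 13.6 and 15.5 in sh1-TUG1 and 8.06, 6.67 and 7.31 CPM in sh2-TUG1. AMT fell in sh2-TUG1 (log2 fold change -0.96 ± 0.14, adjusted p = 5.1e-04), but 3624 of its exonic bases also belong to AC104452.1 on the same strand, which held 113, 124 and 359 reads in sh-Con, 619, 141 and 114 in sh1-TUG1 and 16, 33 and 18 in sh2-TUG1. How the authors' counting split these reads is not given in the sources used here, so the value for AMT is uncertain. GLDC, the decarboxylase of the system, and GCSH, its carrier protein, were lower under the fold limit at -0.41 ± 0.06 and -0.51 ± 0.05 (adjusted p = 4.4e-04 and 6.49e-05), and GCSH shares exons with AC092718.3 on the same strand and has 5 annotated pseudogenes.

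Grouped by the compartment in which the enzymes work, a split made after the values were seen, 7 of 21 cytosolic and 5 of 25 mitochondrial enzymes fell in sh2-TUG1 (8.97% of all genes), as did AGXT, the only peroxisomal one. The medians were -0.17 for the cytosolic and -0.32 for the mitochondrial enzymes. In sh1-TUG1 the 3 genes that fell and the 1 that rose were all cytosolic (2.52% and 2.44% of all genes fell and rose), and the medians were -0.03 and 0.13. Whether the compartments differ was not tested.

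Among 74 other genes of amino acid metabolism, 68 were in both tables. Most of those called in sh2-TUG1 were lower, as were most called over all genes (4.35% higher and 8.97% lower). In sh1-TUG1, 2 were higher (MCEE and ALDH5A1) and 1 lower (GATM), or 2.94% and 1.47% (2.44% and 2.52% of all genes). In sh2-TUG1, 1 was higher (MCEE) and 12 lower, or 1.47% and 17.6%. Between the lines none was higher by the fold limit (2.56% of all genes) and 12 were lower, or 17.6% (8.04% of all genes). Without the limit 2 were higher there (21.0% of all genes). The median of their log2 fold changes was 0.10 in sh1-TUG1, -0.25 in sh2-TUG1 and -0.31 between the lines, against the all-gene medians given above. MCEE (methylmalonyl-CoA epimerase) and ALDH5A1 (succinic semialdehyde dehydrogenase) are named here as the only ones called higher against sh-Con, a choice made after their values were seen. MCEE rose in both lines (0.59 ± 0.11, adjusted p = 0.0043, and 0.84 ± 0.12, adjusted p = 3.76e-04), though in sh1-TUG1 it was under the fold limit without sh-Con replicate 1 (0.50) or sh1-TUG1 replicate 2 (0.54). ALDH5A1 rose in sh1-TUG1 (0.63 ± 0.05, adjusted p = 3.84e-05) and was at 0.03 ± 0.07 in sh2-TUG1 (adjusted p = 0.779).

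The largest change was that of DMGDH, the mitochondrial dehydrogenase that demethylates the dimethylglycine BHMT produces. It was at 4.48, 3.61 and 4.55 CPM in sh-Con, 3.72, 4.63 and 4.54 in sh1-TUG1 and 0.585, 0.509 and 0.492 CPM in sh2-TUG1, a fall of 7.96-fold in sh2-TUG1 (log2 fold change -2.99 ± 0.23, adjusted p = 1.25e-05). BHMT lies within the span of DMGDH on chromosome 5, on the opposite strand. The genes share 239 exonic bases, so reads there cannot be told apart without strand. Their values were not alike in sh1-TUG1, where BHMT fell and DMGDH was at 0.03 ± 0.17 (adjusted p = 0.931). The part of shared reads in the values of either gene was not tested.

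A further 3 genes fell by over 2-fold in sh2-TUG1. SDSL, a relative of serine dehydratase, was at -1.32 ± 0.20 (adjusted p = 6.17e-04), PRODH2, the hydroxyproline dehydrogenase, at -1.22 ± 0.09 (adjusted p = 8.84e-06), and GATM, which starts creatine synthesis from arginine and glycine, at -1.24 ± 0.22 (adjusted p = 0.0015). GATM also fell in sh1-TUG1 (-0.79 ± 0.19, adjusted p = 0.0152), but not without sh1-TUG1 replicate 1 (adjusted p = 0.0513) or replicate 3 (0.0638). ALDH7A1, of lysine breakdown, fell in sh2-TUG1 (-0.89 ± 0.06, adjusted p = 3.4e-06).

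The call of MMAA, a cobalamin chaperone of the propionyl-CoA route (-0.87 ± 0.31, adjusted p = 0.0472), held without sh-Con replicate 1 and was lost without any one of the other 5 libraries (adjusted p = 0.178 without sh-Con replicate 2, 0.109 without sh-Con replicate 3, and 0.0984, 0.0782 and 0.128 without sh2-TUG1 replicate 1, 2 and 3). GLYCTK (glycerate kinase) and CDO1 (cysteine dioxygenase) were called between the lines alone, at -1.02 ± 0.07 and -1.0 ± 0.11 (adjusted p = 6.33e-07 and 3.04e-05), with sh1-TUG1 above and sh2-TUG1 below the control.

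**Figure D5:**
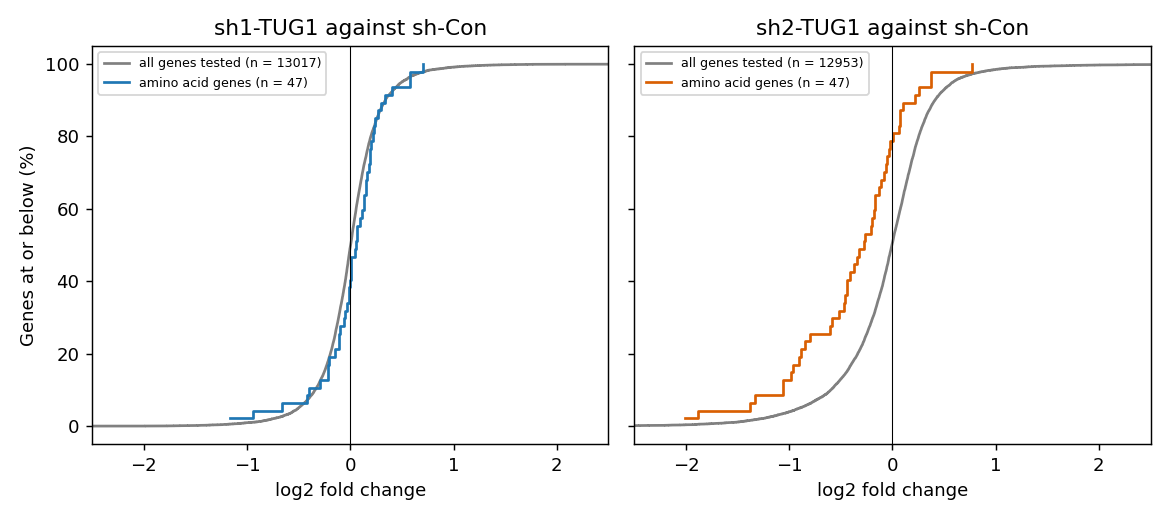
Share of genes (%) at or below each log2 fold change against sh-Con, for all genes tested (grey) and the 47 genes (coloured), in sh1-TUG1 on the left and sh2-TUG1 on the right. In sh2-TUG1 the coloured curve lies left of the grey one, with medians of -0.27 and -0.0048, and in sh1-TUG1 the curves run close together, with medians of 0.05 and 0.0027.

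Promoter sequence was looked up because a TATA box is common in promoters with tissue-restricted activity. RefSeq sequences (GRCh38.p14) were matched for 42 of the 47 genes, and the letters TATAAA were searched on both strands in the 250 bases before the RefSeq start, which for ARG1 and BHMT lies downstream of the gene start in GENCODE 29 given above. They were found in 5 of the 42 (11.9%), in 4.90% of 9354 promoters of tested genes and in 11.1% of 27305 promoters of all genes in the table. Of the 5 genes with a match, ARG1, BHMT and FTCD fell in sh2-TUG1, and ARG1 and BHMT also in sh1-TUG1. The other matches were in genes not called lower in sh2-TUG1. In that line 13 of the 47 genes and 8.97% of all genes were lower, and a link between the letters and the fall was not tested. The matches in these 3 are shown to let their surroundings be compared, 30 bases each, 5′ to 3′ along the gene, with the searched letters in capitals.
ARG1 (chr6:131573185-131573214, plus strand, 29 bases before the RefSeq start): attcaacccaagTATAAAtggaaaaaaaag
BHMT (chr5:79111768-79111797, plus strand, 29 bases before the RefSeq start): cccaactgcgggTATAAAgaggcaggctgc
FTCD (chr21:46155591-46155620, minus strand, 29 bases before the RefSeq start): tgccggtgagcgTATAAAggccctggcggc
These are matches of letters, chosen to be looked for after the expression values were known, and no binding was measured.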

How the data were processed

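RNA-seq of HepG2 lines sh-Con, sh1-TUG1 and sh2-TUG1 (3 libraries each) was deposited as 2 tables, 1 per knockdown line, each with the same control libraries. Whether the NEBNext Ultra libraries kept strand is not stated. The authors deposited raw read counts per gene, and the submitters' processing notes name HISAT2, StringTie and GRCh38 without role or version, while the counting tool is not given in the sources used here. The authors' FPKM, fold change and false discovery rate columns were not used. Depth was 33051617 to 39393293 counts per library, and rows of unannotated genes held 1.46% and 1.41% of counts.

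Counts were tested with edgeR 4.0.16 (R 4.3.3; TMM factors, filterByExpr, quasi-likelihood F test, Benjamini-Hochberg over all genes), for each line with the control (6 libraries) and between lines (9 libraries, 12854 shared rows). A call needed both an adjusted p under 0.05 and a fold change over 1.5. The standard error was the log2 fold change over the square root of F. CPM used TMM factors of all 9 libraries, and lengths per kb were unions of GENCODE 29 exons (GRCh38). Every gene of the list could be named. Values of each library were given for called genes and for the urea cycle and ornithine genes. The remaining genes were given by the largest and the smallest change of each pathway. Of the 74 other pathway genes, at most 8 called genes were named, plus MCEE and ALDH5A1, the only ones called higher against sh-Con. The genes and lists were chosen with earlier results of these data known. The test was checked on simulated counts. Replicates of a group differed by more than counting noise (chi-square per degree of freedom 6.40 to 22.6). Alternatives were other normalizations and filters, DESeq2 1.42.0, a replicate block, a test against a fold of 1.5, no limit on the fold, and leaving out libraries. Protein sequences were not used here. Figures were drawn with matplotlib 3.10.9.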

Additional observations from a re-analysis of the deposited data

Results flagged for a closer look

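Differences between the 2 knockdown lines were tested directly, and 22 of the genes named above passed with a fold over 1.5 (15 of the 47 and 7 of the other pathway genes), 1 of them higher and the rest lower in sh2-TUG1. Some of the other pathway genes were named for passing this test, so the 7 do not give a share. Of all 68 other pathway genes none was higher and 12 were lower (17.6%). Over all genes tested, 2.56% were higher and 8.04% lower. All values here are log2 fold changes of sh2-TUG1 against sh1-TUG1. The higher one was ARG2 at 0.59. Those beyond 2-fold were AGXT at -1.96, HPD at -1.46, FTCD at -1.39, HAAO at -1.33, ALDH6A1 at -1.10, BHMT at -1.07 and ALDH4A1 at -1.02, and of the other pathway genes DMGDH at -3.02, PRODH2 at -1.22, SDSL at -1.17 and GLYCTK at -1.02. The smaller ones were FAH at -0.96, BCAT2 at -0.85, AMT at -0.85, GNMT at -0.74, GLS2 at -0.72, BCKDHB at -0.68 and GLUD1 at -0.59, with CDO1 at -1.0, ALDH7A1 at -0.80 and ALDH5A1 at -0.61.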

How the results depend on the processing

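Of 33 calls of the 47 genes over the 3 comparisons, none changed sign under any alternative, 10 were lost when 1 library was left out, 19 in the test against a fold of 1.5, and 7 without replicate 3 of every group, an alternative chosen after seeing the data. Under the other normalizations, filters, DESeq2, the fit of 9 libraries and the replicate block, 214 of 216 repeats kept the call, all but ARG2 with library size alone and GLS2 with the block, both between the lines.

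With library size alone, genes higher became 2 in sh1-TUG1 and 0 between the lines, and the medians were -0.31 in sh2-TUG1 and -0.45 between the lines. Against a fold of 1.5, genes higher became 0, 0 and 0 in sh1-TUG1, sh2-TUG1 and between the lines, genes lower 0, 8 and 6, other pathway genes higher 0 and 0 in the 2 lines, and other pathway genes lower 0, 5 and 7. Without the limit on the fold, genes higher were 9, 5 and 5, genes lower 6, 27 and 30, other pathway genes higher 22, 6 and 2, and other pathway genes lower 6, 34 and 40. Leaving out 1 library at a time, genes lower were 2 to 4 in sh1-TUG1, 11 to 12 in sh2-TUG1 and 11 to 14 between the lines. The 13 lower genes of sh2-TUG1 were thus not reached with any library left out. In these fits the median in sh1-TUG1 was 0.0284 to 0.0938 and in sh2-TUG1 -0.308 to -0.257. Other pathway genes in sh1-TUG1 were 1 to 2 higher and 0 to 3 lower, and genes higher between the lines 0 to 1. Without replicate 3 of every group the medians were 0.0925 and -0.327 in sh1-TUG1 and sh2-TUG1, other pathway genes in sh1-TUG1 were 5 higher and 0 lower, and 0 genes were higher between the lines. Apart from the fold tests, whose construction is stricter or looser, the cause was not tested.

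Same-numbered replicates of different groups did not deviate together (correlations of -0.33 to 0.011 over 11451 genes, against -0.088 to 0.20 for other numbers), so the numbers were not taken to pair the samples. With the replicate block, genes lower were 3, 13 and 13 in the 3 comparisons, and of the listed genes GLS2 lost its call between the lines (adjusted p = 0.0504). Of the other pathway genes lower in sh2-TUG1, MMAA was lost (adjusted p = 0.0662), as was SLC25A15, which fell under the fold limit (-0.58, adjusted p = 0.00735). Under the fold limit, HPD in sh1-TUG1 (-0.42, adjusted p = 0.00142) and HGD in sh1-TUG1 (0.24, adjusted p = 0.0245) and between the lines (-0.17, adjusted p = 0.0384) passed the adjusted p with the block and missed it in the fit without it.

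Genes under about 3 CPM in sh-Con (ARG1, BHMT, GLS2, GNMT and PRODH) rested on at most 107 reads a library.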

Other observations

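In all, 11 of 11451 genes with enough reads were over 0.5 higher on the log2 CPM scale in replicate 3 than in the mean of the other 2 libraries in every group. Among them were HGD and, with an excess of at least 0.71, 0.61 and 0.64, the plasma proteins F2 (prothrombin), SERPINC1 (antithrombin) and MASP1, which are also made in liver. The others were PLA2G4B, A1BG, ZNF493, PLCB1, SCGN, LGR5 and KLHL9. Of the 11 genes, PLA2G4B had the largest excess in each group (1.79, 1.72 and 1.04 in sh-Con, sh1-TUG1 and sh2-TUG1). Whether the 11 share a trait was not tested. The same count was not made for replicates 1 and 2, so 11 genes cannot be called many or few.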
